A study of Rattus norvegicus with 6 samples.

Results

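Inflammatory cytokine, chemokine and NF-kB target transcripts were measured in the renal cortex of rats given phenylbutazone, an anti-inflammatory analgesic that blocks cyclooxygenase enzymes, and of rats given the vehicle. The set held 30 genes chosen by symbol: 8 cytokine genes, 12 chemokine genes, 4 genes of adhesion molecules and a pentraxin, and 6 genes of NF-kB subunits and their feedback regulators. The array's accessions matched 27 of the 30, out of 45433 genes or unnamed accessions on the array, by 40 probes. Nfkb1, Relb and Tnfaip3 had no matched probe and were not analysed here. Of the 27 genes, 23 had a probe that cleared background (Agilent's flag for a signal well above it) on 3 or more arrays of 6 and were tested, 21 of them well above background on all 6. The other 4, Il1a, Il6, Sele and Selp, were too dim to test.

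The phenylbutazone group held 3 male Sprague-Dawley (Crl:CD(SD)) rats dosed at 200 mg/kg/day, and the vehicle group held 3 male rats of that strain given corn oil. Dosing ran for 4 weeks in both, the animals were 5 weeks old when bought, and all ate a basal diet. Each animal was its own array, and the study's design calls them biological replicates. The labels name no genetic change in either group, and give no route of dosing, plasma level or measure of kidney function.

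NF-kB is a family of dimeric transcription factors held in the cytoplasm by inhibitory IkB proteins. Signals from receptors for interleukin-1, tumour necrosis factor and microbial products activate IkB kinase, the inhibitor is degraded, and the freed dimers switch on cytokine, chemokine and adhesion genes together with their own inhibitors, which closes the loop. In the kidney, tubular cells, endothelium and resident macrophages can all make these products, which draw leukocytes into the tissue. CXCL9, CXCL10 and CXCL11 are also induced by interferons.

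Of the members, Cxcl1, Cxcl10, Ptx3 and Cxcl11 had the largest differences between the groups among those tested, and the sequence just upstream of each is shown because all 4 hold a stretch that matches the NF-kB consensus. The sequences are RefSeq, build GRCr8, 200 bases each, read 5′ to 3′ along the gene's strand and ending next to the annotated start. Capitals mark bases that match the NF-kB consensus on either strand. The stretches are chr14:17479322-17479521 on the minus strand for Cxcl1, chr14:15988866-15989065 on the plus strand for Cxcl10, chr14:15973528-15973727 on the plus strand for Cxcl11 and chr2:152797363-152797562 on the plus strand for Ptx3. Overlapping matches run together into 1 block of capitals, and Cxcl10 has 2 blocks.
Cxcl1: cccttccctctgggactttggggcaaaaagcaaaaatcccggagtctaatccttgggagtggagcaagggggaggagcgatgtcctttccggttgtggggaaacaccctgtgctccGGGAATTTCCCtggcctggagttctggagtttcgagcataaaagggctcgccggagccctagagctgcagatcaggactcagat
Cxcl10: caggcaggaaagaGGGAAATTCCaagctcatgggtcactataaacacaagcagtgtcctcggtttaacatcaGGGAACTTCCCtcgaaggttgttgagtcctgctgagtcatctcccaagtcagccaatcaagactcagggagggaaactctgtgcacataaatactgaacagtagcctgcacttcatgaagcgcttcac
Cxcl11: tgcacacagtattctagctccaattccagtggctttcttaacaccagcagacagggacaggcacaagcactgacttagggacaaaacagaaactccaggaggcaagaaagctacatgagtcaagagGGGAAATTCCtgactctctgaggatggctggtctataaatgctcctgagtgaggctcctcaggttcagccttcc
Ptx3: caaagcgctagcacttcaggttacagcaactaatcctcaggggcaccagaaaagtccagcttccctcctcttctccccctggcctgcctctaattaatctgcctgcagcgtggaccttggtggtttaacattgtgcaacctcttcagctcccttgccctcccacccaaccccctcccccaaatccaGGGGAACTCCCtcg

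RefSeq windows were found for 21 of the 30 members. Those of Birc3, Ccl2, Ccl3, Ccl4, Ccl5, Csf1, Lif, Relb and Selp were not used here. The NF-kB consensus lay within the 250 bases before the start in 10 of the 21 (47.6%), against 2117 of 33469 windows of all genes (6.33%), both strands being read. Besides the 4 genes above these were Ccl7, Cxcl2, Nfkbia, Nfkb2, Il6 and Tnfaip3. The consensus is GGG, a purine, any 2 bases, 2 pyrimidines and CC. The interferon response motif, GAAA, any 2 bases and GAAA, also read on both strands, lay in 1 of the 21 (4.76%), that of Cxcl10 at 243 to 234 bases before the start, against 1140 of all windows (3.41%). Only 12 of the 21 windows begin at the gene's start in the RefSeq gene table, and the others, among them those of Nfkbia and Nfkb2, belong to a start further inside the gene. A match describes these letters and is not a measured binding site. The set was chosen to hold NF-kB targets, so a share of NF-kB matches above that of all genes could follow from the choice.

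**Figure D1:**
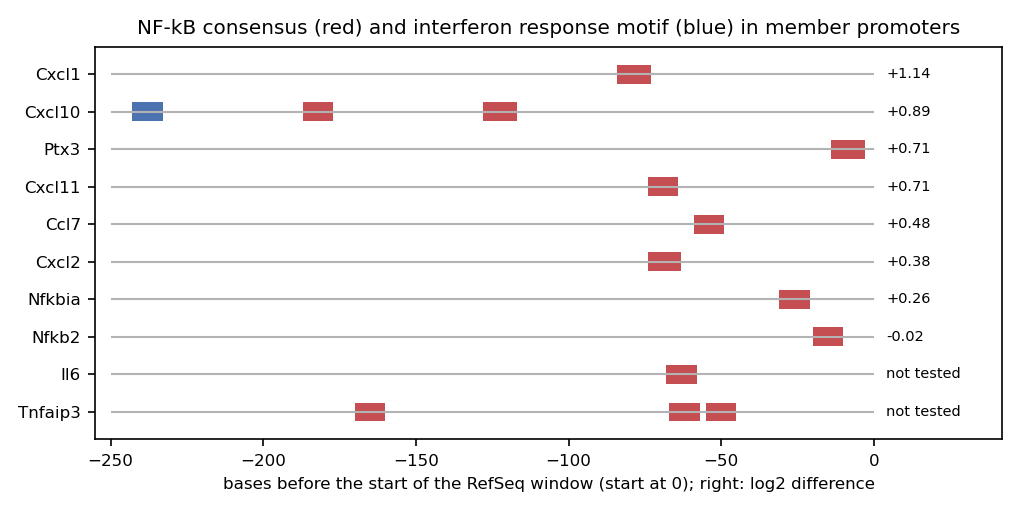
Matches to the NF-kB consensus (red) and the interferon response motif (blue) in the RefSeq windows of the 10 members with an NF-kB match, by bases before the start of the window's transcript. The number at the right is the log2 difference, phenylbutazone minus vehicle; it runs from 1.14 for Cxcl1 to -0.02 for Nfkb2, and Il6 and Tnfaip3 were not tested.

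The 8 tested members with an NF-kB match had a median log2 difference of 0.59, with 7 of the 8 above 0. Cxcl2, among these 7, was tested only because of its phenylbutazone arrays. The 8 tested members whose window held no match had a median of 0.28, also with 7 of 8 above 0. The differences of both sets overlapped, from -0.02 to 1.14 with a match and from -0.16 to 0.45 without. No test was made of this split.

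Levels below are log2 intensities minus the array's 75th percentile, so 0 is that percentile and 1 unit is a 2-fold change, and a difference is phenylbutazone minus vehicle. Levels of different genes rest on different probes and are not compared. Between 65.2% and 68.4% of the probes of an array were well above background, the 75th percentile lay between 891 and 1003 intensity units, and no spot was saturated. All 3 phenylbutazone arrays and vehicle array 3 were on slide 2, and vehicle arrays 1 and 2 were on slide 1, which was scanned on another day. Spiked-in control RNA followed the slide, with medians of 1.69 to 1.82 on the arrays of slide 2 and 0.72 to 0.77 on those of slide 1. Slide 2 alone therefore compares 3 phenylbutazone animals with 1 vehicle animal, and a fit with slide as a fixed block returns that same difference, whereas slide as a random block gives values between it and that of all 6 arrays, with a member median of 0.38. Without vehicle animal 3 the groups lay wholly on different slides. Group, slide and scan day cannot be told apart in any value given without that animal. Summed marker levels of the proximal tubule, the main tubule segment of the cortex, were 2439 to 2845 in phenylbutazone animals and 2536 to 2679 in vehicle animals on the linear scale, with all 12 markers tested. One of them, Kap, stood at 6.32 in phenylbutazone animal 1 and between 8.14 and 8.92 in the other animals. Renal medulla markers (5 of 6 tested) summed to 161, 104 and 105 in phenylbutazone animals 1 to 3 and 137, 133 and 127 in vehicle animals. Phenylbutazone animal 1 thus had the lowest proximal tubule sum and the highest medulla sum, the latter carried mostly by Aqp2. It was the lowest of its group in 25% of the proximal tubule markers, against 34.2% of all genes. The part of these sums in the member differences was not tested.

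No member passed the threshold, an adjusted p of 0.05 in limma's test with Benjamini-Hochberg adjustment over all 29938 genes. Neither did any other gene (0.00%), and the lowest adjusted p was 0.319 among the members and 0.0648 among all genes. At an unadjusted p of 0.05 in limma, 5 of the 23 tested members (21.7%) were called, against 3657 of all genes tested (12.2%): Cxcl1, Cxcl10, Cx3cl1 and Ptx3 were higher in the phenylbutazone group and Ccl4 was lower. Higher calls at that level made up 5.97% of all genes and lower calls 6.24%. The order of the members' share and that of all genes turned with the setting. Without vehicle animal 3, 3 of the 23 members were called, against 22% of all genes. With slide as a fixed block 5 of the 23 were called, against 31.6%. The difference was above 0 for 17 of the 23 members (73.9%), against 52.8% of all genes. Cxcl2 is among the 17, although it was dim in the vehicle group and passed the filter only through the phenylbutazone arrays. The median difference was 0.27 in the members and 0.02 in all genes. The values of all 3 phenylbutazone animals lay above those of all 3 vehicle animals in 2 members (8.70%), Cx3cl1 and Ptx3, against 12.1% of all genes, and no member lay fully below, against 9.39%. With these settings the members' share with groups apart was no larger than that of all genes, whereas most member differences had a positive sign. The order of the shares depended on the setting: without phenylbutazone animal 1, 8 members lay apart higher, against 18% of all genes, without vehicle animal 2, 7 did, against 16.3%, and with normexp background correction 4 did, against 12.5%. Standard errors of the member differences ran from 0.13 to 0.50.

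**Figure D2:**
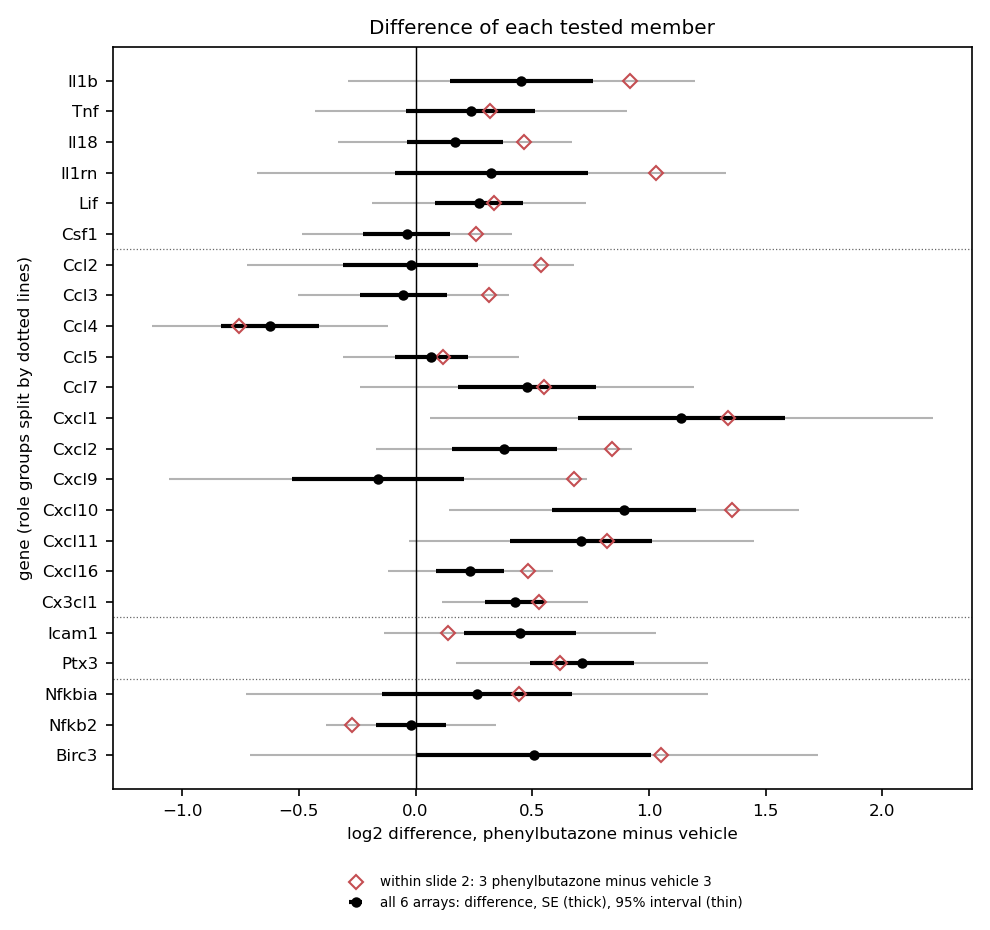
Log2 difference of each tested member, phenylbutazone minus vehicle, with all 6 arrays (black; thick bar SE, thin bar 95% interval) and within slide 2 (red diamond, 3 phenylbutazone arrays minus vehicle 3). The intervals of Cxcl1, Cxcl10, Cx3cl1 and Ptx3 lie above 0 and that of Ccl4 below 0, without adjustment; most diamonds lie to the right of the black point.

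The interleukin-1 family genes had positive differences within the spread between animals. Il1b, which encodes the pyrogenic cytokine interleukin-1 beta, had -1.32, -0.76 and -0.74 in phenylbutazone animals 1 to 3, against -1.52, -0.79 and -1.86 in vehicle animals 1 to 3. The groups overlapped: vehicle animal 2 stood nearly as high as phenylbutazone animals 2 and 3. The difference was 0.45 ± 0.31 (SE, n = 3 per group; limma adjusted p = 0.581), its other probe gave 0.51, and within slide 2 it was 0.92. Il1rn, which encodes the antagonist that blocks the interleukin-1 receptor, had -1.94, -2.26 and -1.07 in phenylbutazone animals and -1.66, -1.80 and -2.79 in vehicle animals, a difference of 0.32 ± 0.41 (limma adjusted p = 0.777) that was 1.03 within slide 2 and -0.03 without vehicle animal 3. Its highest value was in phenylbutazone animal 3 and its lowest in vehicle animal 3, and the other 4 lay between. Il18, which encodes a cytokine matured by caspase-1 and known to be made in tubular epithelium, had -0.13, 0.33 and 0.37 in phenylbutazone animals and 0.03, 0.31 and -0.28 in vehicle animals, 0.17 ± 0.21 (limma adjusted p = 0.771) and 0.47 within slide 2. Both groups covered nearly the same range. Neither of the 2 probes of Il1a, which encodes the cell-bound interleukin-1 alpha, was well above background on any array.

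Tnf, which encodes tumour necrosis factor, had -2.54, -1.59 and -1.65 in phenylbutazone animals, against -2.30, -1.94 and -2.25 in vehicle animals. Phenylbutazone animals 2 and 3 lay above every vehicle animal and phenylbutazone animal 1 below every one of them. The difference was 0.24 ± 0.28 (limma adjusted p = 0.757) and within slide 2 it was 0.32. Lif, which encodes an interleukin-6 family cytokine, had -3.55, -3.37 and -3.43 in phenylbutazone animals and -4.04, -3.34 and -3.79 in vehicle animals, 0.27 ± 0.19 (limma adjusted p = 0.589), with vehicle animal 2 the highest of all. Csf1, which encodes the macrophage growth factor M-CSF, differed by -0.04 ± 0.19 by the brighter probe and by -0.14 by the other, and its sign turned under several settings. Il6, which encodes interleukin-6, was not well above background on any of the 6 arrays, so no direction can be given for it. Of the 6 tested cytokine genes, 5 had a difference above 0 (83.3%, against 52.8% of all genes) and their median was 0.25. None had its groups apart, against 12.1% of all genes higher and 9.39% lower.

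Among the chemokine genes, those of the CXC ligands Cxcl1, Cxcl10 and Cxcl11 had the largest differences. Cxcl1, which encodes a neutrophil attractant acting through the receptor CXCR2, had -4.14, -2.32 and -3.10 in phenylbutazone animals, against -4.10, -4.34 and -4.52 in vehicle animals. Phenylbutazone animals 2 and 3 lay above all vehicle animals, and phenylbutazone animal 1 lay within the vehicle range. The difference was 1.14 ± 0.44, or 2.20-fold (limma adjusted p = 0.393), and within slide 2 it was 1.34. Without phenylbutazone animal 2 it was 0.70, and with normexp background correction it was 0.59. Cxcl2, a close relative with the same receptor, had -5.22, -4.91 and -5.30 in phenylbutazone animals and -5.24, -5.34 and -5.98 in vehicle animals. Its signal cleared background on 3 of 3 phenylbutazone arrays and 0 of 3 vehicle arrays. The groups overlapped, since vehicle animal 1 lay above phenylbutazone animal 3. Cxcl2 differed by 0.38 ± 0.23 (limma adjusted p = 0.536). With vehicle values under the detection limit raised to that limit, its phenylbutazone mean was 1.27-fold higher. Cxcl2 was tested only because of the phenylbutazone arrays. With normexp its difference was 0.047, and without vehicle animal 3 it was 0.15, so its size depended on the background correction and on that animal.

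Cxcl10, which encodes an interferon-inducible attractant of activated T cells and NK cells, had 0.06, 0.88 and 0.86 in phenylbutazone animals, against -0.23, 0.11 and -0.75 in vehicle animals. Phenylbutazone animals 2 and 3 lay above all others, while phenylbutazone animal 1 lay just below vehicle animal 2, so the groups overlapped by that pair. The difference was 0.89 ± 0.31, or 1.86-fold (limma adjusted p = 0.360), and within slide 2 it was 1.35. Cxcl11, a ligand of the same receptor CXCR3, had 0.15, -0.31 and 0.82 in phenylbutazone animals and -0.69, -0.18 and -0.60 in vehicle animals, 0.71 ± 0.30 or 1.64-fold (limma adjusted p = 0.424). Here the order within the phenylbutazone group was another: animal 2 was the lowest and lay below vehicle animal 2. Cxcl9, the third CXCR3 ligand, had -3.96, -4.15 and -3.81 in phenylbutazone animals and -3.60, -3.19 and -4.65 in vehicle animals, a difference of -0.16 ± 0.37 (limma adjusted p = 0.884) that was 0.68 within slide 2. All phenylbutazone values of Cxcl9 lay between the vehicle values of slide 1 and that of slide 2, so its sign rested on which vehicle animals entered. Cxcr3, which encodes the shared receptor, differed by -0.11 ± 0.28 (limma adjusted p = 0.899).

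Cx3cl1, which encodes the membrane-bound chemokine fractalkine, had 5.59, 5.81 and 5.89 in phenylbutazone animals, against 5.50, 5.28 and 5.24 in vehicle animals. The groups did not overlap, although phenylbutazone animal 1 and vehicle animal 1 lay close together. The difference was 0.43 ± 0.13, or 1.34-fold (limma adjusted p = 0.319), and within slide 2 it was 0.53. A dimmer probe of Cx3cl1 had 0.90, 1.08 and 1.05 in phenylbutazone animals and 1.14, 0.81 and 1.17 in vehicle animals, a difference of -0.03, so its probes disagree. Cx3cr1, which encodes the fractalkine receptor on monocytes and macrophages, differed by 0.20 ± 0.20 (limma adjusted p = 0.717). Cxcl16, the other membrane-bound chemokine, had 4.54, 4.51 and 4.55 in phenylbutazone animals and 4.56, 4.29 and 4.05 in vehicle animals, 0.23 ± 0.15 (limma adjusted p = 0.553) and 0.48 within slide 2. The phenylbutazone values of Cxcl16 were nearly equal, and vehicle animal 1 was the highest of all 6. Its receptor gene Cxcr6 differed by 0.47 ± 0.34 (limma adjusted p = 0.605).

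**Figure D3:**
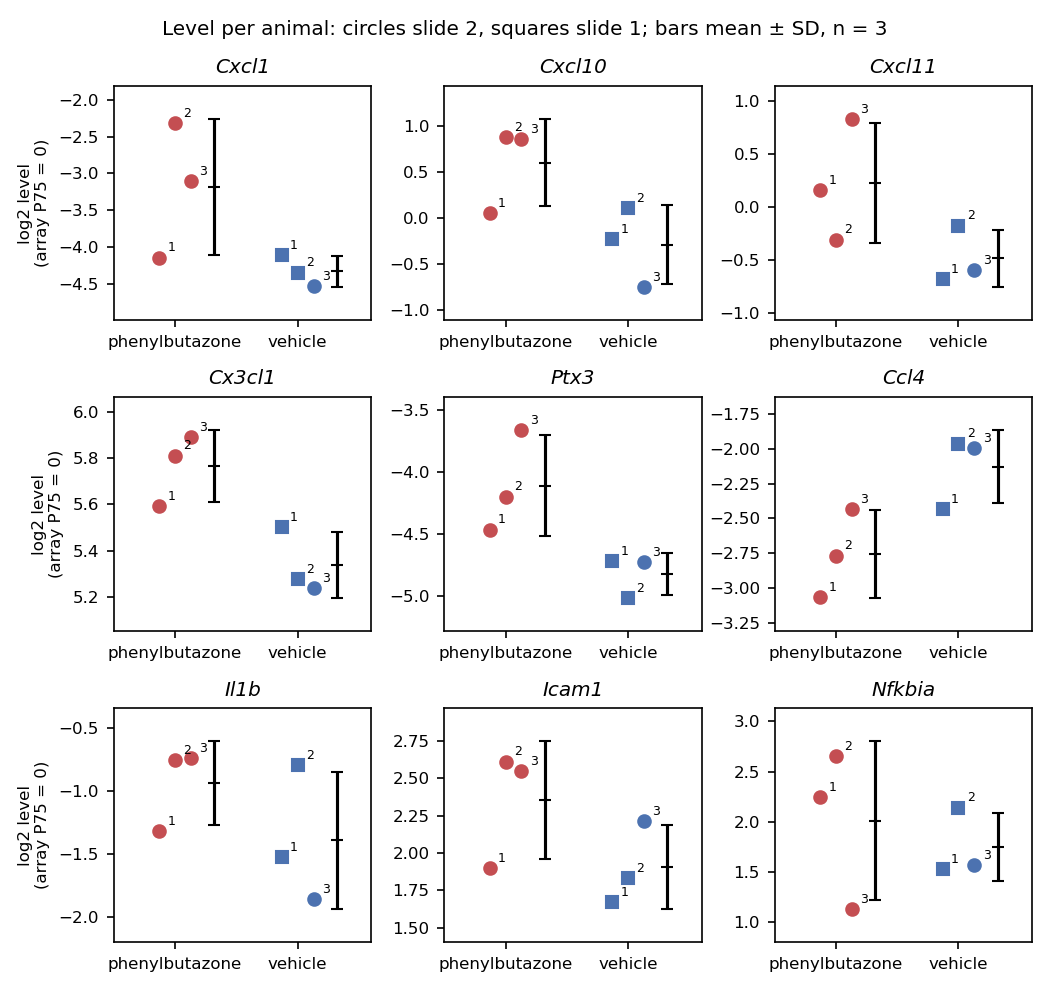
Log2 level of 9 members in each animal (array 75th percentile = 0; each panel has its own scale), phenylbutazone left and vehicle right, with mean ± SD of 3 animals; circles are slide 2, squares slide 1, and the small digits are replicate numbers. Cx3cl1 and Ptx3 have groups apart, and in Cxcl1, Cxcl10, Il1b and Icam1 phenylbutazone animals 2 and 3 lie above animal 1.

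The CC chemokine genes had values in both directions. Ccl4, which encodes the chemokine MIP-1 beta, had -3.06, -2.77 and -2.43 in phenylbutazone animals, against -2.43, -1.96 and -2.00 in vehicle animals. All but the closest pair, phenylbutazone animal 3 and vehicle animal 1, stood apart, and that pair was equal to 2 decimals. The difference was -0.62 ± 0.21, or 1.54-fold lower in phenylbutazone animals (limma adjusted p = 0.352), and within slide 2 it was -0.76. The other probe of Ccl4, with -3.02, -2.67 and -2.53 in phenylbutazone animals and -2.49, -1.93 and -2.06 in vehicle animals, differed by -0.58 with the groups apart. Ccl3, which encodes the related MIP-1 alpha, had -1.38, -1.55 and -1.33 in phenylbutazone animals and -1.31, -1.06 and -1.73 in vehicle animals, -0.05 ± 0.19 (limma adjusted p = 0.931) and 0.31 within slide 2. Ccl3 and Ccl4 are neighbouring genes in mammals, but here Ccl4 had lower values in both comparisons and Ccl3 did not, and the difference between the genes was not tested. Ccl5, which encodes the T cell chemokine RANTES, had 1.59, 1.42 and 1.95 in phenylbutazone animals and 1.66, 1.56 and 1.54 in vehicle animals, 0.07 ± 0.16 (limma adjusted p = 0.886).

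Ccl2, which encodes the monocyte attractant MCP-1, had -1.10, -1.47 and -0.87 in phenylbutazone animals, against -1.005, -0.69 and -1.68 in vehicle animals. The vehicle values enclosed all the phenylbutazone values. The difference was -0.02 ± 0.29 (limma adjusted p = 0.984) and 0.54 within slide 2, where vehicle animal 3 was the lowest of the 4. Ccl7, which encodes the related MCP-3, had -4.76, -4.70 and -4.45 in phenylbutazone animals and -5.66, -4.50 and -5.19 in vehicle animals, 0.48 ± 0.29 (limma adjusted p = 0.549). Its signal cleared background on 3 of 3 phenylbutazone and 2 of 3 vehicle arrays, a dimmer probe gave -0.04, and with normexp the difference was 0.16. Ccr2, which encodes the receptor of MCP-1, differed by 0.66 ± 0.37 (limma adjusted p = 0.515). Of the 12 chemokine genes, 8 had a difference above 0 (66.7%, against 52.8% of all genes), Cxcl2 among them, and the median was 0.31. At an unadjusted p of 0.05 in limma 4 were called (33.3%, against 12.2% of all genes), with Ccl4 as the lower one. In 1 the groups lay apart with phenylbutazone higher (8.33%, against 12.1%), and in none with phenylbutazone lower (against 9.39%).

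Icam1, which encodes the endothelial and epithelial ligand of leukocyte integrins, had 1.90, 2.61 and 2.55 in phenylbutazone animals, against 1.67, 1.83 and 2.22 in vehicle animals. Phenylbutazone animals 2 and 3 lay above all vehicle animals and phenylbutazone animal 1 below vehicle animal 3. The difference was 0.45 ± 0.24 (limma adjusted p = 0.497), but 0.14 within slide 2, where the only vehicle animal was the highest of its group. The integrin chain genes Itgal, Itgam and Itgb2, whose products bind ICAM-1 on leukocytes, differed by -0.53 ± 0.24, 0.24 ± 0.70 and 0.10 ± 0.30, with limma adjusted p values from 0.446 to 0.916. Ptx3, which encodes a secreted pentraxin that binds microbes and complement, had -4.47, -4.20 and -3.66 in phenylbutazone animals and -4.72, -5.02 and -4.73 in vehicle animals. Every phenylbutazone animal lay above every vehicle animal of either slide, and the probe was well above background on all 6 arrays. The difference was 0.71 ± 0.22, or 1.64-fold (limma adjusted p = 0.330), 0.62 within slide 2, and its other probe was too dim to test. With normexp background correction the difference of Ptx3 was 0.40.

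Sele, which encodes E-selectin of activated endothelium, had 2 probes that were both too dim to test. The first cleared background on 2 of 3 phenylbutazone arrays and 0 of 3 vehicle arrays, with -6.03, -5.25 and -4.53 in phenylbutazone animals and -7.39, -5.67 and -7.41 in vehicle animals. Vehicle animal 2 lay above phenylbutazone animal 1, so the groups overlapped. The difference by this probe was 1.55, and no fold is given because not every phenylbutazone array cleared background either. The other probe stood at -2.02 in vehicle animal 2 and between -7.97 and -7.53 in the other 5 animals. Its difference was -1.81, in the opposite direction and carried by vehicle animal 2, so no direction can be given for Sele. Selp, which encodes P-selectin of endothelium and platelets, was not well above background on any array.

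The 3 tested members of the NF-kB machinery, Nfkbia, Nfkb2 and Birc3, had differences no larger than about 1 standard error. Nfkbia, which encodes the inhibitor IkB alpha and is itself an early NF-kB target, had 2.25, 2.65 and 1.13 in phenylbutazone animals, against 1.53, 2.14 and 1.57 in vehicle animals. The phenylbutazone group held both the highest value, in animal 2, and the lowest, in animal 3. The difference was 0.26 ± 0.41 (limma adjusted p = 0.819), 0.44 within slide 2 and -0.057 without phenylbutazone animal 2. Nfkb2, which encodes the p100 precursor of the alternative pathway, had 0.26, 0.27 and 0.14 in phenylbutazone animals and -0.02, 0.25 and 0.50 in vehicle animals, -0.02 ± 0.15 (limma adjusted p = 0.969), -0.27 within slide 2, and its other probe gave -0.10. Birc3, which encodes the ubiquitin ligase cIAP2 of the tumour necrosis factor receptor complex, had -2.21, -1.31 and -0.50 in phenylbutazone animals and -1.15, -2.00 and -2.40 in vehicle animals, 0.51 ± 0.50 (limma adjusted p = 0.709). Within slide 2 the difference of Birc3 was 1.05, and without phenylbutazone animal 3 it was 0.086. The groups overlapped, with the highest value in phenylbutazone animal 3. Of these 3 genes, 2 had a difference above 0 (66.7%, against 52.8% of all genes) and the median was 0.26. None had its groups apart, against 12.1% of all genes higher and 9.39% lower.

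The tested members varied between animals within each group. After each member's own mean was subtracted, the median deviation of the members was -0.02, 0.22 and 0.33 in phenylbutazone animals 1 to 3, against -0.07, 0.10 and -0.34 in vehicle animals 1 to 3. Phenylbutazone animal 1 was thus at the level of vehicle animals 1 and 2, and vehicle animal 3 was the lowest of all. Phenylbutazone animal 1 was the lowest of its group in 12 of the 23 members (52.2%), against 34.2% of all genes, and vehicle animal 3 the lowest of its group in 14 (60.9%), against 49.1% of all genes. The low standing of phenylbutazone animal 1 was not particular to the members. It held for 84.6% of macrophage markers, 91.7% of T and NK cell markers and 83.3% of receptor genes, but 25% of neutrophil and 0% of erythrocyte markers. Within slide 2 the median member difference was 0.53 (all genes 0.06), and 17 of the 23 members (73.9%) had all 3 phenylbutazone animals above vehicle animal 3, against 41.4% of all genes, while 2 had all 3 below (8.70%), against 31.1%. Without vehicle animal 3 the median was 0.18 (all genes -0.0027), with all phenylbutazone arrays on slide 2 and both vehicle arrays on slide 1. The size of the median thus depended on vehicle animal 3, in which the slide and the animal cannot be told apart.

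**Figure D4:**
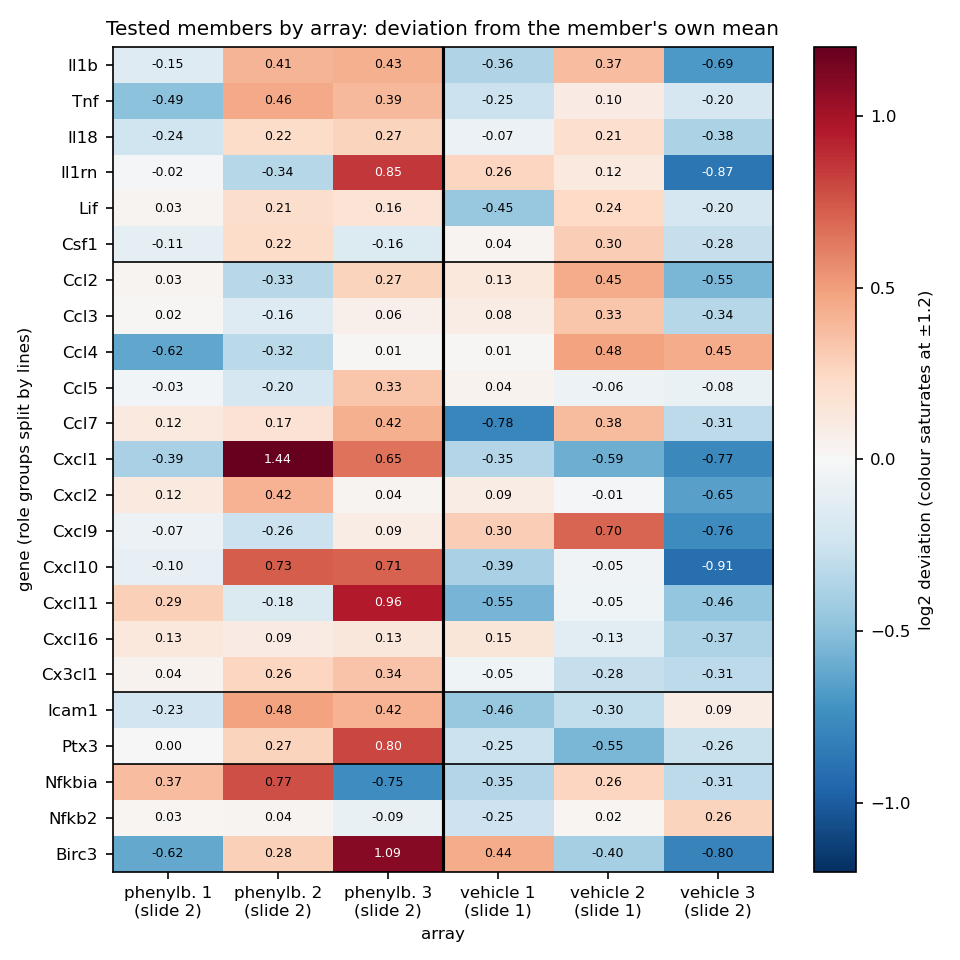
Heat map of the 23 tested members (rows, by role) in each animal (columns, phenylbutazone left), as log2 deviation from the member's own mean over the 6 arrays; red is above the mean and blue below. Phenylbutazone animals 2 and 3 are mostly red, vehicle animal 3 is mostly blue, and Ccl4 runs the other way.

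Markers of the cells that make or receive these signals are given for the same animals, as summed linear levels, since in bulk tissue fewer cells of a type and less RNA per cell cannot be told apart. Macrophage markers (13 of 14 tested, Cd163 not) summed to 97.8, 119 and 129 in phenylbutazone animals and 129, 103 and 97.9 in vehicle animals. These sums covered the same range in both groups and were carried mostly by Lyz2. Of the 13 markers 1 had its groups apart (7.69%, against 21.5% of all genes), C1qc, which was lower by -0.32 ± 0.11 (limma adjusted p = 0.349). Neutrophil markers summed to 0.682, 0.501 and 0.937 in phenylbutazone animals and 0.518, 0.879 and 0.367 in vehicle animals, with 4 of 10 tested and Mpo, Elane, Cxcr2, Ngp, Ltf and Mmp8 not. T and NK cell markers, all 12 tested, summed to 2.82, 3.24 and 3.74 in phenylbutazone animals and 2.86, 2.84 and 3.42 in vehicle animals. Lymphocytes thus gave overlapping values in the groups. Endothelial markers (7 of 10 tested) summed to 35.2, 33.9 and 35.0 in phenylbutazone animals and 36.3, 35.8 and 25.4 in vehicle animals, a sum carried mostly by Kdr; vehicle animal 3 had the lowest sum but was the lowest of its group in only 2 of the 7 markers (28.6%, against 49.1% of all genes). B cell markers (4 of 8 tested) summed to 1.54, 1.53 and 1.74 in phenylbutazone animals and 1.42, 2.26 and 2.27 in vehicle animals, and platelet markers (3 of 7 tested) to 1.52, 1.68 and 1.78 in phenylbutazone animals and 1.53, 1.72 and 1.37 in vehicle animals. Erythrocyte markers (9 of 12 tested) summed to 824, 580 and 923 in phenylbutazone animals and 497, 677 and 494 in vehicle animals, with all 9 differences above 0 and a median of 0.48. The part of any of these in the member differences was not tested.

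Lists around the members show where the rest of the pathway stood, and no gene of any passed the threshold in limma. Of 18 tested other chemokine genes, 5 had their groups apart with phenylbutazone higher (27.8%) and none lower (background 12.1% and 9.39%), and the median was 0.19. These were Ccl20, Cxcl14, Ccl17, Ccl28 and Pf4. Ccl20, which encodes the ligand of CCR6 on lymphocytes and dendritic cells, had 0.45, 2.82 and 1.75 in phenylbutazone animals and -2.94, -2.45 and -1.64 in vehicle animals. Every phenylbutazone animal was above every vehicle animal, a difference of 4.02 ± 0.64 (limma adjusted p = 0.187), with animal 1 the lowest of its group as for Cxcl1 and Cxcl10. Cxcl14, which encodes an epithelial chemokine, differed by 0.98 ± 0.28 (limma adjusted p = 0.307), Ccl17, which encodes a CCR4 ligand, by 0.68 ± 0.23 (limma adjusted p = 0.357) and Ccl28, which encodes a mucosal chemokine, by 0.52 ± 0.23 (limma adjusted p = 0.432).

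Of 18 tested receptor genes, 4 had their groups apart with phenylbutazone higher (22.2%, against 12.1% of all genes) and none lower (against 9.39%), and the median was 0.24. Lifr, which encodes the receptor chain for LIF, differed by 0.55 ± 0.11 (limma adjusted p = 0.247), with -0.16, -0.37 and -0.24 in phenylbutazone animals and -0.77, -0.70 and -0.95 in vehicle animals. Il6st, which encodes the signalling chain gp130 that LIF and interleukin-6 share, had 3.69, 3.83 and 4.02 in phenylbutazone animals and 3.54, 3.42 and 3.13 in vehicle animals, 0.48 ± 0.15 (limma adjusted p = 0.330). Both chains of the LIF receptor thus had higher values in every phenylbutazone animal, while Lif itself did not separate the groups. Tnfrsf1a, which encodes the main receptor of tumour necrosis factor, differed by 0.45 ± 0.17 (limma adjusted p = 0.378), and Tnfrsf1b, which encodes the other one, by 0.25 ± 0.18 (limma adjusted p = 0.609). Il1r2, which encodes a decoy receptor for interleukin-1, differed by 0.86 ± 0.24 (limma adjusted p = 0.303), although its signal cleared background on 2 of 3 phenylbutazone arrays and 1 of 3 vehicle arrays. Il6r, which encodes the interleukin-6 binding chain, differed by 0.28 ± 0.29 (limma adjusted p = 0.721), and Csf1r, which encodes the M-CSF receptor of macrophages, by -0.15 ± 0.15 (limma adjusted p = 0.701).

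Of 10 tested genes for processing and decoys of interleukin-1, interleukin-18 and tumour necrosis factor, 1 lay apart higher, Il1r2 again, and 1 lower, Adam10, which encodes a membrane sheddase (-0.15 ± 0.10, limma adjusted p = 0.562). These shares, 10% each, were near those of all genes (12.1% and 9.39%). Their median was -0.0081. Of 31 tested other components of the NF-kB pathway, 6 lay apart higher (19.4%, against 12.1% of all genes) and 2 lower (6.45%, against 9.39%), with a median of 0.12. The adaptor gene Myd88 and the lymphotoxin receptor gene Ltbr each differed by 0.42, with limma adjusted p values of 0.392 and 0.358. Map3k14 and Chuk, which encode the kinases NIK and IKK alpha of the alternative pathway, stood at -0.28 ± 0.10 and -0.25 ± 0.13, with limma adjusted p values of 0.380 and 0.481. Both kinase genes lay lower in every phenylbutazone animal than in every vehicle animal, and Ltbr, whose product is a receptor upstream of NIK, lay higher.

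Of 25 tested other NF-kB target genes, 7 lay apart higher (28%) and 4 lower (16%), against 12.1% and 9.39% of all genes, and the median was 0.20. Gadd45b, which encodes a stress-response protein, had 0.48, 0.78 and 0.70 in phenylbutazone animals and -0.11, -0.15 and -0.06 in vehicle animals, 0.76 ± 0.11 (limma adjusted p = 0.164). Ltb, which encodes lymphotoxin beta, a ligand of LTBR, had -0.31, -0.25 and -0.12 in phenylbutazone animals and -0.96, -0.86 and -1.05 in vehicle animals, 0.73 ± 0.11 (limma adjusted p = 0.164). Relative to their errors, both differences were larger than that of any member. Lcn2, which encodes the kidney injury marker NGAL, had -0.47, -1.17 and -0.34 in phenylbutazone animals and -1.63, -1.63 and -1.54 in vehicle animals, 0.94 ± 0.22 (limma adjusted p = 0.275). Ptgs2, which encodes cyclooxygenase-2, an enzyme that phenylbutazone inhibits, differed by -1.68 ± 0.71 (limma adjusted p = 0.422), and its signal cleared background on only 1 of 3 phenylbutazone arrays, against 3 of 3 vehicle arrays. Its values were lower in every phenylbutazone animal than in every vehicle animal. Of 11 tested immediate early genes, whose transcripts respond quickly to many stimuli, 1 lay apart higher, Ier2 (0.13 ± 0.09), and 1 lower, Fosb (-0.21 ± 0.10), with limma adjusted p values of 0.590 and 0.463 and a list median of 0.02. These shares, 9.09% each, were near those of all genes.

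**Figure D5:**
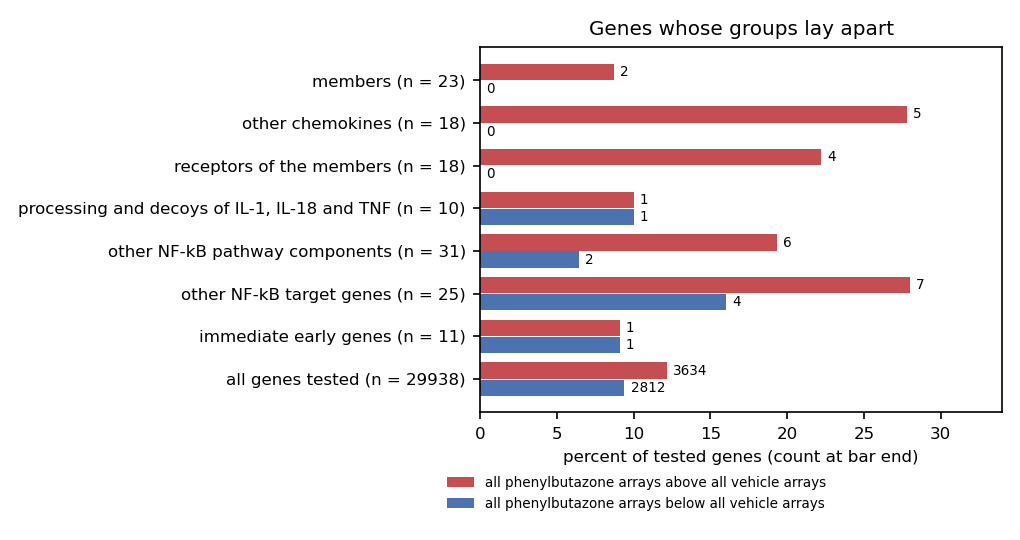
Percent of tested genes whose groups did not overlap, with phenylbutazone higher (red) or lower (blue), for the members, the 6 surrounding lists and all genes tested, with counts at the bar ends. The members, at 8.70% and 0%, lie below all genes (12.1% and 9.39%) in both directions, and the other NF-kB target genes, at 28% and 16%, above them.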

How the data were processed

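Renal cortex RNA of 6 rats was labelled with Cy3 and hybridised to one-colour Agilent arrays, per the labels' protocols, and read with Agilent Feature Extraction 10.7, per the submitters' processing notes. The deposited scanner files hold a background-subtracted spot intensity on a linear scale. The deposited value table holds a ratio, found here to be that intensity over the array's 75th percentile (median quotients 0.997 to 0.999). The deposited intensities were taken here to log2, minus that percentile over 61537 probes; 1439 control spots and 40 outlier probes were left out. Probes flagged well above background on 3 or more of the 6 arrays were kept (41006, 66.6%). Accessions matched RefSeq (GRCr8) symbols for 28206 probes (45.8%). A gene was its brightest kept probe, 29938 in all. No depth applies to arrays; 3 animals per group limit the precision.

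Differences were fitted with limma 3.58.1 (R 4.3.3; lmFit, eBayes, two-sided, Benjamini-Hochberg over all genes, threshold 0.05), after the fit was tested on simulated data. Errors after ± are standard errors. For a group with no array well above background, values under an array's detection limit were raised to it before the fold was taken. That limit is the lowest level of any probe well above background on the array. Such a fold describes the means of these animals and takes no account of sampling error. Members, lists and settings were chosen with earlier results of these data known, so no list was tested. Every member was named; of each other list, up to 4 genes with the largest difference among those whose groups lay apart, and receptors of described members. Some results the rule names are not reported here. Pf4, Csf1r, Cd14 and Il1r2 are each in more than 1 list. Motifs were searched with Python 3.11.15. Replicate numbers did not pair animals: correlations of same-numbered deviations were -0.0301, 0.0114 and -0.0737. Alternatives were scaling to the median, normexp on the median spot intensity, quantile normalization, the deposited ratios, no or a stricter filter, every probe, an intensity trend, slide as a block or slide 2 alone, the replicate block, and leaving out each animal.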

Additional observations from a re-analysis of the deposited data

How the results depend on the processing

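No member passed the adjusted threshold in limma under any of the 18 alternatives, and at an unadjusted p of 0.05 between 2 and 7 of the members tested were called, against 7.4% to 31.6% of all genes; the 7 were on slide 2 alone, where 27.1% of all genes were called. Of all genes, 2 passed with normexp, 1 with quantile normalization, 8 with an intensity trend and 1 with slide as a random block. Leaving out each animal in turn gave 0 to 814, the highest without vehicle animal 3. In that setting group and slide coincide, so the 814 genes cannot be credited to phenylbutazone rather than to the slide. Members higher with groups apart numbered 4 with median scaling (16.7% of all genes), 4 with normexp (12.5%) and 17 on slide 2 alone (41.4%), and 3 to 8 on leaving out an animal, where 15% to 21.6% of all genes did; 8 was without phenylbutazone animal 1 (18%). Members lower with groups apart numbered 1 with normexp (9.98%), with the deposited ratios (9.47%) and with every probe on its own (9.08%), 2 on slide 2 alone (31.1%), and 0 to 2 on leaving out an animal (12.3% to 22.1%). The median member difference was 0.53 with slide as a fixed block and on slide 2 alone, and 0.18 to 0.42 on leaving out an animal.

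Signs turned for 8 members. With median scaling Nfkb2 was 0.027, Ccl2 0.026 and Csf1 0.0085, and with normexp Nfkb2 was 0.11. With slide as a fixed block and on slide 2 alone, Ccl2 was 0.54, Csf1 0.26, Ccl3 0.31 and Cxcl9 0.68; with slide as a random block they were 0.34, 0.15, 0.18 and 0.38. Leaving out each animal gave -0.029 to 0.58 for Il1rn, -0.15 to 0.11 for Nfkb2, -0.30 to 0.20 for Ccl2, -0.057 to 0.70 for Nfkbia, -0.083 to 0.19 for Ccl5, -0.19 to 0.10 for Csf1, -0.24 to 0.10 for Ccl3 and -0.58 to 0.15 for Cxcl9. The cause was not tested. The replicate block called 0 genes after adjustment and 2695 before it, against 3657 without the block, and 5 members before it, with Icam1 in place of Cx3cl1; the animals share only a number.

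Standard errors of up to 0.50 from 3 animals per group limit what can be resolved. Il1a, Il6 and Selp were at background, which sets no level. On slide 2 alone the single vehicle animal is assumed to vary like the others.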
